A study of Mus musculus with 12 samples.

Results

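Toll-like receptors were followed in CD11b dendritic cells (DCs), cells that present antigen and bear the integrin CD11b, from a mouse study whose title speaks of established pulmonary fibrosis. The members were the rows of the count table with the symbols Tlr1, Tlr2, Tlr3, Tlr4, Tlr6, Tlr7, Tlr8, Tlr9, Tlr12 and Tlr13. These are 10 of 24391 genes in the table, and all 10 were among the 13221 genes with enough counts to be tested. All mice were wild-type C57BL/6J, 8 to 12 weeks old, and were given an adenovirus unable to replicate through the trachea. The vector was either AdCL, which carries no inserted gene, or AdTGFb1, which carries a pig gene for an active form of the cytokine TGF-β1. Of the 12 libraries, AdCL DC 7, 8 and 9 and AdTGFb1 DC 14, 52 and 54 belong to experiment 1. AdCL DC 943, 944 and 949 and AdTGFb1 DC 954, 955 and 956 belong to experiment 3. The adenovirus itself was given to the controls too, and no library came from untreated mice. Organ, sort gate, time since the vector and whether libraries stem from different animals were not given in the sources used here, so the p-values measure the spread between these libraries, which may be technical.

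Toll-like receptors are membrane proteins that bind conserved parts of microbes and start inflammatory signalling in DCs and macrophages. Some sit at the cell surface and read bacterial lipids and proteins: TLR2 pairs with TLR1 or TLR6 for lipoproteins, and TLR4 with its partner MD-2 reads lipopolysaccharide. Others sit in endosomes, need the chaperone UNC93B1 and cutting by proteases, and read nucleic acids or, for TLR12, a profilin of parasites. Nearly all of them signal through the adaptor MYD88, while TLR3 uses TRIF and TLR4 uses both.

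Total counts ran from 10099912 to 15594546 per library, so 3 counts were worth 0.181 to 0.31 CPM (counts relative to the library's total, which was scaled by the TMM method), and such limits cover counting error only. The first principal component of all tested genes set the AdCL libraries of experiment 1 (-95.7 to -81.1) apart from the other 9 (-23.2 to 65.5). Counts of 4 Y-linked genes showed DC 7, 8, 9 and 14 to be male and the other 8 libraries to be female. All AdCL libraries of experiment 1 were thus male, and sex and vector overlap there, which bears on the X-linked members Tlr7, Tlr8 and Tlr13. All 6 libraries of experiment 3 were female. The 10 markers of CD11b and other conventional DCs, among them Itgam, Itgax, Zbtb46, Flt3 and H2-Ab1, were counted in every group, with sums of 7397 to 12950 CPM. Of these 10 markers, 1 was called higher and 5 lower with AdTGFb1 over both experiments (test given below), where 6.78% of all genes were called higher and 10.4% lower. In experiment 1, 3 were called higher and 5 lower, and in experiment 3, 1 higher and 4 lower. Of those that were lower, Zbtb46, a factor that defines conventional DCs, lay at 109.6 to 178.9 CPM with AdCL and 29.9 to 56.3 CPM with AdTGFb1. These ranges do not overlap, as for 4.46% of all genes tested in this direction.

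Per length of exon sequence, Tlr2 was the most abundant receptor transcript, with 140.04 ± 24.6 CPM per kb over the 12 libraries (SD). Tlr9 followed with 29.5 ± 10.4 CPM per kb, then Tlr13 with 13.0 ± 5.04 and Tlr7 with 10.3 ± 5.68 CPM per kb. Tlr8 (8.69 ± 4.76), Tlr1 (7.79 ± 4.74), Tlr12 (5.52 ± 6.61) and Tlr4 (5.15 ± 2.86) lay in the middle of the order on the CPM per kb scale, and Tlr6 (2.47 ± 1.45) and Tlr3 (1.17 ± 0.809) below. Tlr2 was above every other member in all 12 libraries. From Tlr9 down, each member's range over the libraries overlapped that of its neighbour in this order, so the order of neighbours is not fixed beyond their spread. The remaining mouse receptors, Tlr5 for flagellin and Tlr11 for profilin, are no members and had 1.26 and 0.802 CPM per kb.

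**Figure D1:**
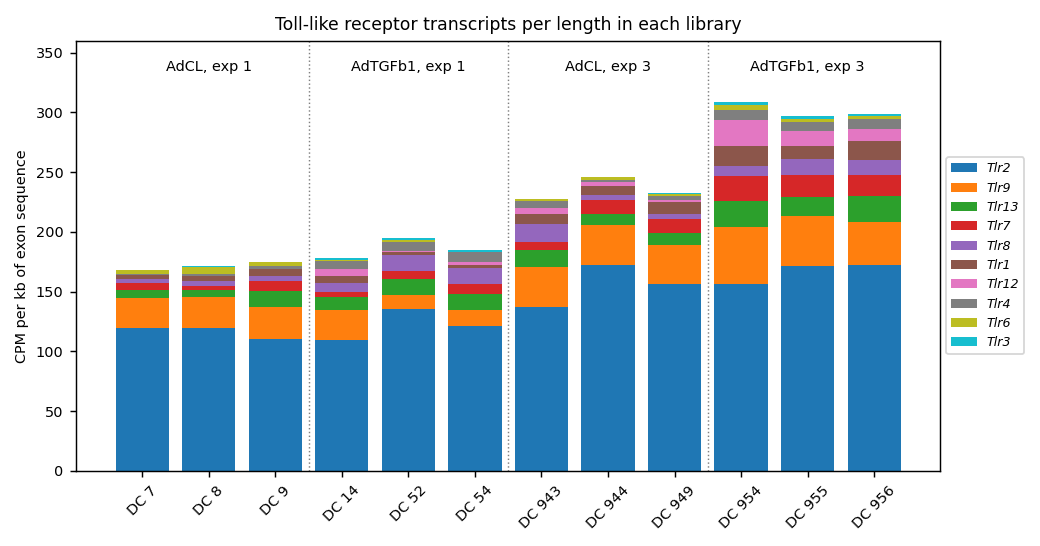
Stacked levels of the 10 members in each of the 12 libraries, in CPM per kb of exon sequence, with libraries grouped by vector and experiment. Tlr2 makes up 50.6 to 71.2% of each bar, and the 3 AdTGFb1 libraries of experiment 3 are the tallest, at 297.2 to 308.8 CPM per kb.

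Tlr2 and the endosomal receptors made up most of the pool in every group. The sum of the 10 members per kb was 171.5 ± 3.46 CPM per kb with AdCL and 185.9 ± 8.49 with AdTGFb1 in experiment 1 (SD, n = 3). In experiment 3 it was 235.6 ± 9.46 with AdCL and 301.5 ± 6.31 with AdTGFb1 (SD, n = 3). The AdTGFb1 sums lay above the AdCL sums of the same experiment in 3 of 3 libraries each time. The endosomal members Tlr3, Tlr7, Tlr8, Tlr9, Tlr12 and Tlr13 made up 23.5 to 30.2% of the sum with AdCL and 24.6 to 31.6% with AdTGFb1 in experiment 1, which overlap. In experiment 3 they made up 25.4 to 33.3% with AdCL and 33.5 to 39.9% with AdTGFb1, which do not. These sums were not tested.

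Over both experiments, 5 of the 10 receptors rose with AdTGFb1 and 0 fell, by edgeR's quasi-likelihood F test with the experiment as a term and a Benjamini-Hochberg adjusted p under 0.05 over all genes tested (all adjusted p-values here come from this tool unless another is named). They were Tlr4 among the surface receptors and Tlr3, Tlr8, Tlr12 and Tlr13 among the endosomal ones. Of all genes tested, 17.2% were called, 6.78% as higher and 10.4% as lower. The median effect of the 10 members was 0.604 on the log2 scale, against -0.002 for all genes. In bulk RNA, fewer cells of a type and less RNA per cell cannot be told apart. The count was 5 with other size factors, with no filter or a stricter filter on low counts and with DESeq2, and 6 with limma-voom. It was 3 once sex was a term (Tlr3, Tlr4 and Tlr12) and 2 when the experiment was not a term (Tlr3 and Tlr4).

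**Figure D2:**
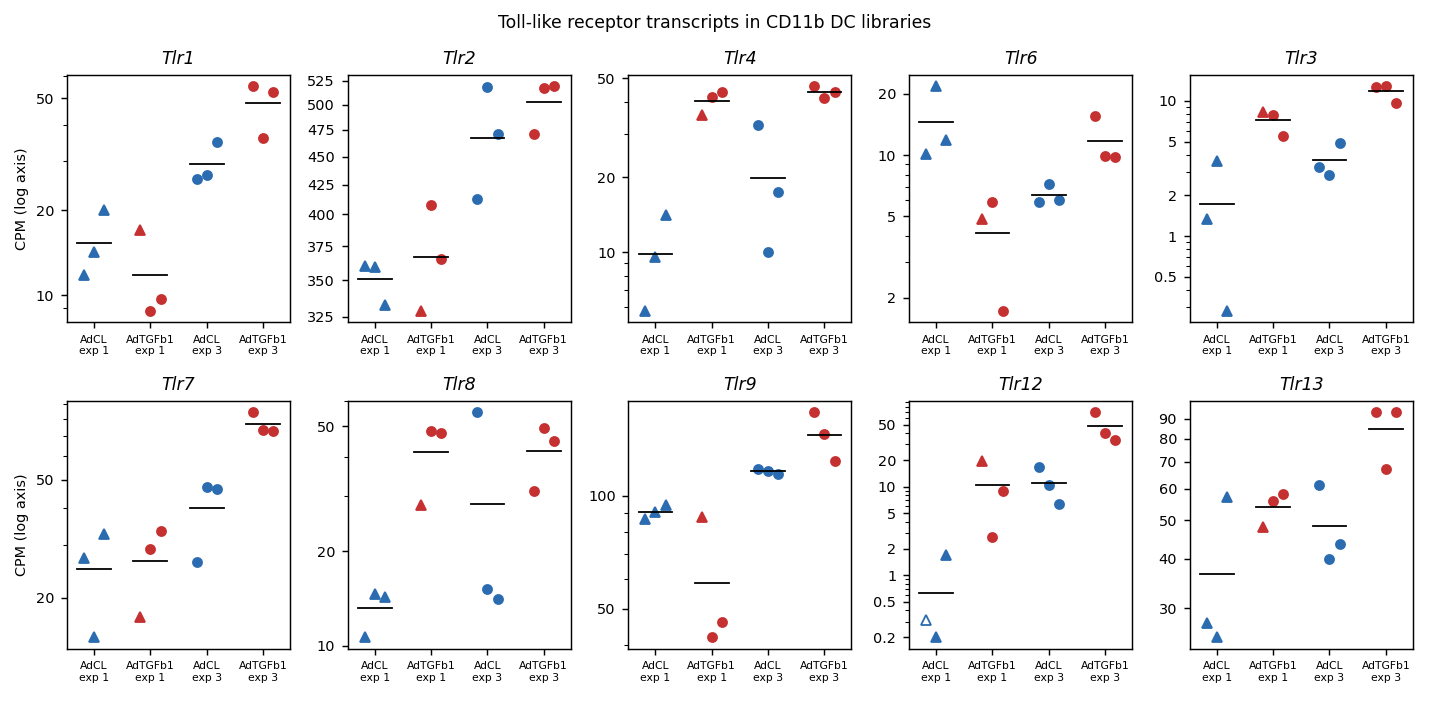
CPM (log axis, a different scale in each panel) of each member in the 12 libraries, by vector (AdCL blue, AdTGFb1 red) and experiment. Triangles are male and circles female libraries, the open symbol of Tlr12 is DC 7 with 0 counts drawn at its limit of 0.31 CPM, and dashes are means of 3. For Tlr3 and Tlr4 all 6 red symbols lie above all 6 blue ones, while those of Tlr2 overlap.

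Of the surface receptors, Tlr4 changed and Tlr2 did not pass the test. Tlr4, the receptor for lipopolysaccharide, lay at 5.79, 9.55 and 14.1 CPM in AdCL DC 7, 8 and 9 and at 35.7, 42.0 and 43.9 CPM in AdTGFb1 DC 14, 52 and 54. In experiment 3 it lay at 32.3, 10.0 and 17.4 CPM in AdCL DC 943, 944 and 949 and at 46.7, 41.7 and 43.9 CPM in AdTGFb1 DC 954, 955 and 956. All 6 AdTGFb1 libraries were above all 6 AdCL libraries, with DC 943 the highest control; 1.86% of all genes tested had 6 AdTGFb1 libraries above all controls. Tlr4 was 3.01-fold higher over both experiments (log2 1.59 ± 0.28, adjusted p = 0.000628), by log2 2.04 ± 0.36 in experiment 1 (adjusted p = 0.000205) and by 1.15 ± 0.34 in experiment 3 (adjusted p = 0.047). The call over both experiments and that in experiment 1 held in every setting run. The call in experiment 3 was lost without any 1 of 8 libraries, with adjusted p-values of up to 0.211, reached without AdCL DC 944 (log2 0.85). Without AdCL DC 943 it was log2 1.68 (adjusted p = 0.00369).

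Tlr2, the common partner in lipoprotein recognition, ranged from 332.7 through a median of 386.6 to 518.2 CPM with AdCL and from 328.8 through 439.4 to 519.5 CPM with AdTGFb1. The groups overlapped almost fully, and the effect was log2 0.09 ± 0.10 (adjusted p = 0.616). In no setting run was Tlr2 called for the vector in experiment 1 or 3 either. Its SE was the smallest of the 10 members.

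The 2 partners of Tlr2, Tlr1 and Tlr6, lie side by side on chromosome 5 with 0 protein-coding genes between them and share stretches of identical sequence. The longest run in the reference transcripts (GENCODE M21, GRCm38) is 229 bases of coding sequence, bases 1468 to 1696 of 2385 in Tlr1 and bases 1507 to 1735 of 2418 in Tlr6. It is shown because reads within it cannot be assigned to either gene, and no base is set in capitals:
Tlr1 and Tlr6: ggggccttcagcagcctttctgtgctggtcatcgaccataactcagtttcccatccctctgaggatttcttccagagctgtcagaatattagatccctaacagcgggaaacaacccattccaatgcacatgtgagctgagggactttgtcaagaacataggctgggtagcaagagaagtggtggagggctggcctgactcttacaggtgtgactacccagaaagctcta
Of all windows of 50 bases, 14.8% of those of Tlr1 and 12.3% of those of Tlr6 occur in the other gene. How the counting treated such reads was not given in the sources used here, so the values of both genes are uncertain to that extent.

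Tlr1 lay at 11.8, 14.2 and 19.99 CPM in AdCL DC 7, 8 and 9 and at 17.0, 8.81 and 9.69 CPM in AdTGFb1 DC 14, 52 and 54. The libraries of experiment 3 held 25.8, 26.7 and 34.8 CPM in AdCL DC 943, 944 and 949 and 55.3, 36.0 and 52.6 CPM in AdTGFb1 DC 954, 955 and 956. The groups overlapped in experiment 1 and not in experiment 3, where the 3 AdTGFb1 libraries were the highest of all. Neither difference passed the test (log2 -0.37 ± 0.31, adjusted p = 0.41, and log2 0.72 ± 0.30, adjusted p = 0.189).

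The fitted effects on Tlr6 had opposite signs in experiments 1 and 3. It lay at 10.1, 21.9 and 11.8 CPM in AdCL DC 7, 8 and 9 and at 4.85, 5.87 and 1.72 CPM in AdTGFb1 DC 14, 52 and 54, so that all 3 AdTGFb1 libraries were below the controls. Experiment 3 gave 5.87, 7.25 and 6.03 CPM in AdCL DC 943, 944 and 949 and 15.5, 9.90 and 9.78 CPM in AdTGFb1 DC 954, 955 and 956, so that all 3 were above the controls. Tlr6 fell in experiment 1, by 1.82 ± 0.51 in log2 (adjusted p = 0.0116) and had an effect of log2 0.88 ± 0.50 in experiment 3 (adjusted p = 0.373). The difference between them (experiment 3 minus experiment 1) was log2 2.69 ± 0.71 (adjusted p = 0.0251). It was the 1 difference called among the 10 members, where 6.02% of all genes were called, 3.43% as higher and 2.59% as lower. It was lost once sex was a term (log2 2.47, adjusted p = 0.234) and without any 1 of AdCL DC 8 (2.26, 0.0855), 943 (2.63, 0.0536) and 949 (2.62, 0.0634) and AdTGFb1 DC 54 (2.32, 0.064) and 954 (2.44, 0.0646). The fall in experiment 1 was lost once sex was a term (adjusted p = 0.222) and without AdCL DC 8 (0.0851) or AdTGFb1 DC 54 (0.0667).

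Each of the endosomal receptors called over both experiments had a promoter in the RefSeq table (GRCm38.p6), which held 8 of the 10 members. The 250 bases before each of these 4 start sites are shown 5′ to 3′ on the gene's strand, because these members share that call. Capitals mark GAGGAA, the core bound by the myeloid factor PU.1, searched on both strands (TTCCTC is the same match on the other strand):
Tlr3, chr8:45410381-45410630, minus strand: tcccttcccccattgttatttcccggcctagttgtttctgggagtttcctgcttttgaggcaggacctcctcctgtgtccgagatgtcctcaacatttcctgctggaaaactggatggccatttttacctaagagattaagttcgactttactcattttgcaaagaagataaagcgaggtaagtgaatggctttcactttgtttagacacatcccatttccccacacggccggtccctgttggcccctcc
Tlr8, chrX:167264330-167264579, minus strand: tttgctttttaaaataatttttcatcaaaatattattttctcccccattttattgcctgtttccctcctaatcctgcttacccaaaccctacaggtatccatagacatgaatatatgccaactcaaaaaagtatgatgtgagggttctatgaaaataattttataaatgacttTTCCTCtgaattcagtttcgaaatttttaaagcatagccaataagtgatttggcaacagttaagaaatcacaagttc
Tlr12, chr4:128618620-128618869, minus strand: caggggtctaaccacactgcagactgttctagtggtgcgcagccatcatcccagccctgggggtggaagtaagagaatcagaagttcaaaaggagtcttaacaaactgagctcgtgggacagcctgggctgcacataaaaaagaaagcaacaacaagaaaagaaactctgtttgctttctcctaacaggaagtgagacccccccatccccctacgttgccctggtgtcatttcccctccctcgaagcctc
Tlr13, chrX:106143025-106143274, plus strand: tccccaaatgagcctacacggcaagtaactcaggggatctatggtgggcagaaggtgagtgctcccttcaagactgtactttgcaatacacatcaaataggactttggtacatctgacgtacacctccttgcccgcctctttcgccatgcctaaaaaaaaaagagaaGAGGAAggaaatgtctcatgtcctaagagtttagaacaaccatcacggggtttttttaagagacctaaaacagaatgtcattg
GAGGAA stood at bases -83 to -78 of Tlr13 and at bases -77 to -72 of Tlr8 (other strand), counted from the start site, and not in the windows of Tlr3 and Tlr12. Among members not called over both experiments, it also stood at bases -23 to -18 in a window of Tlr1 and at -112 to -107 of Tlr9. Of 32851 promoter windows of the same length, 23.3% held GAGGAA. The AP-1 site TGANTCA (6.75% of windows) and the SMAD palindrome GTCTAGAC (0.167%) were not found in the 4 windows shown. The AP-1 site stood at bases -58 to -52 of Tlr9. A match is a string of letters and was not tested as a binding site.

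Tlr3, the receptor for double-stranded RNA, was the least abundant member and rose with AdTGFb1. It lay at 1.34, 3.58 and 0.28 CPM in AdCL DC 7, 8 and 9 and at 8.33, 7.88 and 5.5 CPM in AdTGFb1 DC 14, 52 and 54. In experiment 3 it lay at 3.27, 2.85 and 4.89 CPM in AdCL DC 943, 944 and 949 and at 12.8, 12.9 and 9.66 CPM in AdTGFb1 DC 954, 955 and 956. All 6 AdTGFb1 libraries were above all 6 AdCL libraries, and the lowest control, DC 9, was at the level of 3 counts. Tlr3 was 3.64-fold higher (log2 1.86 ± 0.48, adjusted p = 0.0104), with log2 2.06 ± 0.69 in experiment 1 (adjusted p = 0.0315) and 1.68 ± 0.66 in experiment 3 (adjusted p = 0.156). The call over both experiments held in every setting run. That in experiment 1 was lost without any 1 of AdCL DC 7 and 9 and AdTGFb1 DC 14 and 52 (adjusted p of 0.0716 to 0.0815), once sex was a term (log2 2.26, adjusted p = 0.11) and with the 6 libraries of experiment 1 alone (0.0971), and without AdCL DC 8 the effect was log2 3.18 (adjusted p = 0.00404). With the 6 libraries of experiment 3 alone Tlr3 passed there (log2 1.69, adjusted p = 0.0454).

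Tlr12, 1 of the profilin receptors, had the largest effect of the 10 members. In AdCL DC 7, 8 and 9 it had 0, 2 and 18 counts (0, 0.20 and 1.67 CPM), and in AdTGFb1 DC 14, 52 and 54 it lay at 19.7, 2.72 and 8.87 CPM. The libraries of experiment 3 held 16.6, 10.5 and 6.30 CPM in AdCL DC 943, 944 and 949 and 69.6, 40.9 and 33.5 CPM in AdTGFb1 DC 954, 955 and 956. The groups did not overlap within either experiment, but the controls of experiment 3 were as high as the AdTGFb1 libraries of experiment 1. Tlr12 was higher by log2 2.88 ± 0.57 over both experiments (adjusted p = 0.00168), by 3.998 ± 0.77 in experiment 1 (adjusted p = 0.000502) and by 2.11 ± 0.62 in experiment 3 (adjusted p = 0.0434). When the experiment was not a term, the effect was log2 2.30 (adjusted p = 0.08). The size in experiment 1 rests on few counts in the controls: without AdCL DC 9 it was log2 6.59 and without AdTGFb1 DC 14 it was 3.16. The call in experiment 3 was lost without any 1 of 5 libraries, with the highest adjusted p, 0.2, without AdTGFb1 DC 954 (log2 1.74), and with DESeq2 (adjusted p = 0.19).

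Tlr8, an X-linked receptor of the endosome that reads RNA in humans, lay at 10.7, 14.6 and 14.3 CPM in AdCL DC 7, 8 and 9 and at 28.2, 48.3 and 47.7 CPM in AdTGFb1 DC 14, 52 and 54. Experiment 3 gave 55.5, 15.2 and 14.1 CPM in AdCL DC 943, 944 and 949 and 31.2, 49.4 and 44.8 CPM in AdTGFb1 DC 954, 955 and 956. AdCL DC 943 was the highest of all 12 libraries, and the other 5 controls lay below all 6 AdTGFb1 libraries. Tlr8 was 2.14-fold higher (log2 1.10 ± 0.32, adjusted p = 0.0228), with log2 1.65 ± 0.40 in experiment 1 (adjusted p = 0.00397) and 0.57 ± 0.39 in experiment 3 (adjusted p = 0.482). Without DC 943 the effect in experiment 3 was log2 1.51 (adjusted p = 0.00463). The call over both experiments was lost once sex was a term (log2 0.75, adjusted p = 0.145), when the experiment was none (0.0603), without AdCL DC 7 (0.0576) and without AdTGFb1 DC 54 (0.051). That in experiment 1 was lost once sex was a term (log2 1.09, adjusted p = 0.197).

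Tlr13, the X-linked receptor for a bacterial ribosomal RNA sequence, lay at 27.6, 25.4 and 57.0 CPM in AdCL DC 7, 8 and 9 and at 48.1, 55.8 and 58.0 CPM in AdTGFb1 DC 14, 52 and 54. In experiment 3 it lay at 61.2, 40.0 and 43.5 CPM in AdCL DC 943, 944 and 949 and at 93.3, 67.4 and 93.4 CPM in AdTGFb1 DC 954, 955 and 956. AdCL DC 9 lay among the AdTGFb1 libraries of experiment 1, while the groups of experiment 3 did not overlap. Tlr13 was 1.61-fold higher over both experiments (log2 0.69 ± 0.19, adjusted p = 0.0191), and that call was lost once sex was a term (log2 0.68, adjusted p = 0.0562) and when the experiment was none (0.0512). Within the experiments it did not pass (log2 0.56 ± 0.26, adjusted p = 0.125, and log2 0.81 ± 0.26, adjusted p = 0.0641). Without AdCL DC 9 it passed in experiment 1 (log2 1.07, adjusted p = 0.00296), and in experiment 3 it passed without any 1 of AdCL DC 8, 9 and 943 and AdTGFb1 DC 955, with DESeq2 (adjusted p = 0.0356), with limma-voom (0.0136), with no filter (0.00504) and with the 6 libraries of experiment 3 alone (0.0306).

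Tlr7, the X-linked receptor for single-stranded RNA that neighbours Tlr8, lay at 27.2, 14.7 and 32.9 CPM in AdCL DC 7, 8 and 9 and at 17.2, 29.2 and 33.5 CPM in AdTGFb1 DC 14, 52 and 54, which overlap. The libraries of experiment 3 held 26.3, 47.4 and 46.4 CPM in AdCL DC 943, 944 and 949 and 84.4, 73.4 and 72.7 CPM in AdTGFb1 DC 954, 955 and 956, which do not. Over both experiments the effect was log2 0.52 ± 0.24 (adjusted p = 0.148, and 0.0365 with limma-voom). In experiment 3 it was log2 0.94 ± 0.29 (adjusted p = 0.0553), just short of the threshold, and it passed with DESeq2 (0.0321), with limma-voom (0.0107), with no filter (0.0036), with the 6 libraries of experiment 3 alone (0.0218) and without any 1 of AdCL DC 8 and 9 and AdTGFb1 DC 14 (0.027 to 0.0459). In experiment 1 it was log2 0.09 ± 0.29 (adjusted p = 0.854). The difference between these effects did not pass (log2 0.84 ± 0.41, adjusted p = 0.249).

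Tlr9, the receptor for DNA with unmethylated CpG, fell with AdTGFb1 in experiment 1. It lay at 86.6, 90.5 and 94.1 CPM in AdCL DC 7, 8 and 9 and at 87.7, 42.0 and 46 CPM in AdTGFb1 DC 14, 52 and 54. The male AdTGFb1 library, DC 14, lay among the male controls, and the female ones, DC 52 and 54, lay far below. Experiment 3 gave 117.6, 116.5 and 114.4 CPM in AdCL DC 943, 944 and 949 and 166.7, 145.4 and 123.7 CPM in AdTGFb1 DC 954, 955 and 956, so that all 3 AdTGFb1 libraries were above the controls. Tlr9 fell in experiment 1, by 0.63 ± 0.21 in log2 (adjusted p = 0.0344) and had log2 0.32 ± 0.21 in experiment 3 (adjusted p = 0.46). The fall was lost once sex was a term (log2 -0.04, adjusted p = 0.931), with the 6 libraries of experiment 1 alone (0.0662) and without any 1 of 6 libraries, with the highest adjusted p, 0.184, without AdTGFb1 DC 52. The difference between the effects was log2 0.95 ± 0.30 (adjusted p = 0.0599). It passed without AdTGFb1 DC 14 (log2 1.36, adjusted p = 0.00131), with DESeq2 (0.0332), with limma-voom (0.0259) and with no filter (0.00678).

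**Figure D3:**
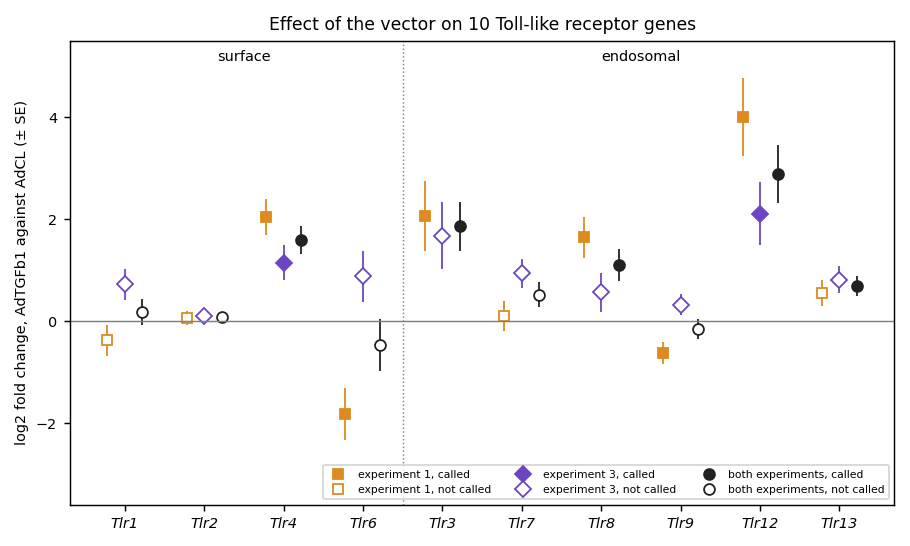
Effect of the vector on each member as log2 fold change of AdTGFb1 against AdCL with its SE (vertical bars), in experiment 1 (squares), experiment 3 (diamonds) and over both (circles); filled symbols passed an adjusted p under 0.05 in edgeR. All 10 effects in experiment 3 lie above 0, while Tlr1, Tlr6 and Tlr9 lie below 0 in experiment 1.

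Set side by side, the experiments differed in how many receptors were called. In experiment 1, 4 of 10 members rose (Tlr3, Tlr4, Tlr8 and Tlr12) and 2 fell (Tlr6 and Tlr9), where 24.7% of all genes were called, 10.6% as higher and 14.1% as lower. In experiment 3, 2 of 10 rose (Tlr4 and Tlr12) and 0 fell, where 6.43% of all genes were called, 1.97% as higher and 4.46% as lower. All 10 effects of experiment 3 were above 0, with a median of log2 0.846 against 0.003 for all genes. In 8 of the 10, all but Tlr2 and Tlr8, the 3 AdTGFb1 libraries of experiment 3 were above the 3 controls, as for 11.5% of all genes. In experiment 1 this held for Tlr3, Tlr4, Tlr8 and Tlr12, and the reverse for Tlr6, as for 18.8% and 21.6% of all genes. With a term for sex, 2 members (Tlr4 and Tlr12) rose and 0 fell in experiment 1; that term rests on AdTGFb1 DC 14, the 1 male library of its group. The count for experiment 3 moved between 0 and 4 when 1 library was left out.

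The members also differed between the experiments themselves. With the vector as a term, 5 of 10 were higher in experiment 3 than in experiment 1 and 0 lower, where 6.43% of all genes were called, 3.57% as higher and 2.86% as lower. These were Tlr12 (log2 2.97 ± 0.57, adjusted p = 0.00422), Tlr1 (1.47 ± 0.26, 0.00214), Tlr7 (1.11 ± 0.24, 0.00898), Tlr9 (0.84 ± 0.19, 0.0137) and Tlr2 (0.43 ± 0.10, 0.0117). For Tlr1, Tlr2 and Tlr9 all 6 libraries of experiment 3 were above all 6 of experiment 1, as for 1.18% of all genes, while 0.817% were below in all 6. Once sex was a term, Tlr2 (log2 0.35, adjusted p = 0.229) and Tlr7 (1.10, 0.105) were no longer called. The experiment and, in part, the sex of the mice cannot be told apart in this comparison. Tlr5 was higher in experiment 3 too (log2 2.22 ± 0.57, adjusted p = 0.0245), and neither Tlr5 (0.38 ± 0.55, adjusted p = 0.694) nor Tlr11 (0.69 ± 0.77, 0.607) was called for the vector over both experiments.

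Markers of other cell types moved with the same groups. The summed level of 12 genes of monocytes and macrophages was 3829 to 4492 CPM with AdCL and 8055 to 10256 CPM with AdTGFb1 in experiment 1, and 6804 to 8051 and 13144 to 17031 CPM in experiment 3. Of these 12, 8 rose with AdTGFb1 over both experiments, 0 fell and none was at 0, where 6.78% of all genes were called higher and 10.4% lower. Apoe (a lipid carrier) was at log2 1.85 ± 0.16, Fcgr1 (the receptor CD64) at 1.68 ± 0.18, Mertk (a receptor for dying cells) at 1.14 ± 0.14 and Csf1r (the receptor for M-CSF) at 0.81 ± 0.10. The same list was also higher in experiment 3 than in experiment 1, with 8 of 12 called, where 3.57% of all genes were called higher. The summed level of 8 genes of alveolar macrophages was 74.8 to 179.7 CPM with AdCL and 1076 to 2282 CPM with AdTGFb1 in experiment 1, and of the latter most was Chil3, a chitinase-like secreted protein. In experiment 3 it was 226.6 to 627.4 CPM with AdCL and 74.2 to 133.04 CPM with AdTGFb1, the opposite order. Of these 8 genes, 3 were called higher and 0 lower in experiment 1, where 10.6% and 14.1% of all genes were. In experiment 3, 0 were called higher and 2 lower, where 1.97% and 4.46% of all genes were. AdCL DC 943, the highest control for Tlr4 and Tlr8, was also the highest control of experiment 3 on this list. The part of such cells in the receptor results was not tested.

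**Figure D4:**
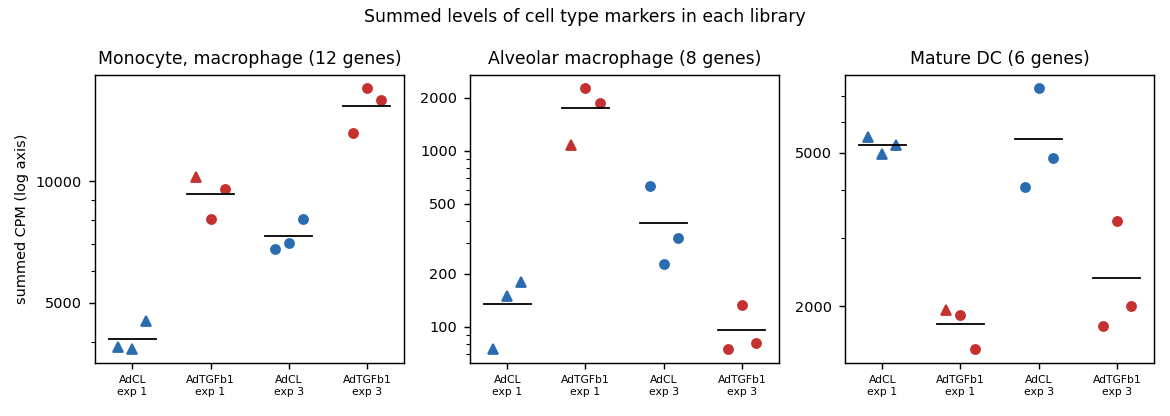
Summed CPM (log axis) of 3 marker lists in the 12 libraries by vector (AdCL blue, AdTGFb1 red) and experiment, with triangles for male and circles for female libraries and dashes for means of 3. The monocyte and macrophage list is higher with AdTGFb1 in both experiments, the alveolar macrophage list in experiment 1 alone, and the mature DC list is lower with AdTGFb1 in both.

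The list of 6 genes of mature DCs went the other way. It summed to 4077 to 7372 CPM over the 6 AdCL libraries and to 1544 to 3322 CPM over the 6 AdTGFb1 libraries. Over both experiments 5 of its 6 genes fell, where 10.4% of all genes were called lower. Plasmacytoid DCs and B cells are known for high Tlr7 and Tlr9. Their lists were low, with sums of 82.9 to 157.8 CPM for 10 genes of plasmacytoid DCs and 0.093 to 10.8 CPM for 7 genes of B cells. Siglech, which defines plasmacytoid DCs in mice, ranged from 0 to 9.20 CPM. Over both experiments 0 of the 7 tested genes of its list were called, where 17.2% of all genes were called. The 7 genes of CD103 (type 1) DCs, a cell type known for Tlr3, include Tlr11 and summed to 649.7 to 1282 CPM with AdCL and 463.2 to 692.3 CPM with AdTGFb1. Over both experiments 1 of these 7 genes was called higher and 1 lower, where 6.78% of all genes were called higher and 10.4% lower. Their median effect was log2 -0.513 in experiment 1 and 0.724 in experiment 3, where 5 of the 7 effects were above 0. The sum thus does not stand for each gene of this list. T and NK cell genes summed to at most 13.1 CPM and neutrophil genes to at most 49.2 CPM, with Camp at 0 in all libraries. Lists of endothelial cells (24.1 to 512.3 CPM), lung epithelial cells (24.5 to 468.4 CPM) and fibroblasts (16.4 to 193.8 CPM) were highest in AdCL DC 8, and all of these lists were higher in all 3 controls of experiment 1 than in its AdTGFb1 libraries. The endothelial list summed to 137.7, 512.3 and 279.5 CPM in AdCL DC 7, 8 and 9 and to 41.4, 24.1 and 27.2 CPM in AdTGFb1 DC 14, 52 and 54, and the epithelial list to 69.9 to 468.4 and 24.5 to 48.6 CPM. In experiment 1, 7 of 8 endothelial, 6 of 8 epithelial and 2 of 5 tested fibroblast genes fell with AdTGFb1 and 0 rose, where 14.1% of all genes were called lower. In experiment 3, 0 of the 8 endothelial and 0 of the 8 epithelial genes and 1 of the 5 fibroblast genes (higher) were called, where 6.43% of all genes were called. The effects on 7 of the 8 endothelial genes differed between the experiments, as did those on 6.02% of all genes. Tlr6 was likewise higher in all 3 controls of experiment 1 and highest in DC 8, and the part of these cells in its values was not tested.

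Of 6 co-receptors and ligand carriers of surface receptors, 1 rose and 0 fell over both experiments, where 6.78% of all genes were called higher and 10.4% lower. The median of this list was log2 -0.179 against -0.002 for all genes. The gene that rose was Ly86 (MD-1), the partner of CD180, at 98.4 to 186.5 CPM with AdCL and 140.7 to 271.4 CPM with AdTGFb1 (log2 0.51 ± 0.13, adjusted p = 0.0078, and 0.0877 when the experiment was not a term). Cd14, which hands lipopolysaccharide to TLR4 and is also on the monocyte list, lay at 930.9 to 1286 and 661.2 to 1073 CPM (log2 -0.33 ± 0.12, adjusted p = 0.0731, 0.0382 with DESeq2 and 0.0367 with limma-voom). Ly96, which encodes MD-2, lay at 3.41 to 11.3 and 4.71 to 9.28 CPM (log2 0.02 ± 0.39, adjusted p = 0.984). Of the lipopolysaccharide receptor's 3 genes, Tlr4 alone was thus called by edgeR. Cd180, a relative of TLR4 without a signalling domain, did not pass over both experiments (log2 -0.30 ± 0.23, adjusted p = 0.417).

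Of 12 genes that fold, move and cut the receptors, 6 rose and 1 fell over both experiments, with a median of log2 0.332. Of all genes, 6.78% rose and 10.4% fell. Unc93b1, the chaperone that brings the nucleic acid receptors to endosomes, ranged from 299.8 through a median of 465.7 to 635.1 CPM with AdCL and from 494.0 through 691.9 to 854.3 CPM with AdTGFb1. The groups overlapped, since experiment 3 was higher, and Unc93b1 rose by log2 0.60 ± 0.11 (adjusted p = 0.000823, and 0.0654 when the experiment was not a term). The proteases cathepsin S (Ctss, log2 0.95 ± 0.16, adjusted p = 0.000392) and cathepsin B (Ctsb, 0.66 ± 0.12, 0.000671), which are among the enzymes that cut these receptors, rose as well. The other 3 that rose were Lgmn, Cnpy3 and Rab7b, by log2 0.33 to 0.50, named after their values were seen. Nrros, which restrains receptor maturation in the endoplasmic reticulum, fell by 0.68 ± 0.13 in log2 (adjusted p = 0.00174). In experiment 1, 5 of the 12 rose and 1 fell, where 10.6% of all genes were called higher and 14.1% lower. In experiment 3, 1 rose (Ctss, adjusted p = 0.0476) and 1 fell (Nrros, 0.00304), where 1.97% were called higher and 4.46% lower. There 11 of the 12 effects were above 0, with a median of log2 0.364. Cathepsins and legumain are also abundant in macrophages, whose markers rose in the same libraries, and the part of such cells in these values was not tested.

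Further down the pathway, the lists are again to be read against 6.78% of all genes called higher and 10.4% lower. Of 5 tested adaptors 0 rose and 2 fell, Ticam1 (TRIF, log2 -0.67 ± 0.20, adjusted p = 0.025) and Ticam2 (TRAM, -0.50 ± 0.16, 0.0395). The calls of Ticam1 and Ticam2 were lost without 6 and 9 of the 12 libraries in turn, with adjusted p-values of up to 0.0772 and 0.12, that of Ticam1 also once sex was a term (0.133), and that of Ticam2 when the experiment was not a term (0.0616). Myd88 lay at 37.3 to 71.6 CPM with AdCL and 43.3 to 56.6 CPM with AdTGFb1 (log2 -0.13 ± 0.17, adjusted p = 0.665). Of 23 kinases and ubiquitin enzymes 3 rose and 4 fell, among them Traf6 (-0.65 ± 0.15, 0.00441), Ikbkb (-0.80 ± 0.12, 0.000116) and Map2k3 (-0.97 ± 0.15, 0.000152), which fell, and Traf3 (0.47 ± 0.14, 0.0278), which rose. The call of Traf3 was lost once sex was a term (adjusted p = 0.0582), when the experiment was not a term (0.142) and without any 1 of 5 libraries (0.0573 to 0.0831). The others called, named after their values were seen, were Irak2 (-0.35 ± 0.11, 0.0362), Peli2 (0.67 ± 0.22, 0.0436) and Mapk14 (0.52 ± 0.17, 0.0454). Tlr3 and its adaptor gene Ticam1 thus had effects of opposite sign over both experiments. Ticam1 fell in experiment 1 (log2 -1.16 ± 0.22, adjusted p = 0.000521), where sex and vector overlap, and had log2 -0.19 ± 0.22 in experiment 3 (adjusted p = 0.739). In experiment 3, 0 of the 5 adaptors were called (median log2 -0.053). Of the 23 kinases and ubiquitin enzymes, 1 rose and 2 fell there (median log2 0.071), where 1.97% of all genes were called higher and 4.46% lower.

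**Figure D5:**
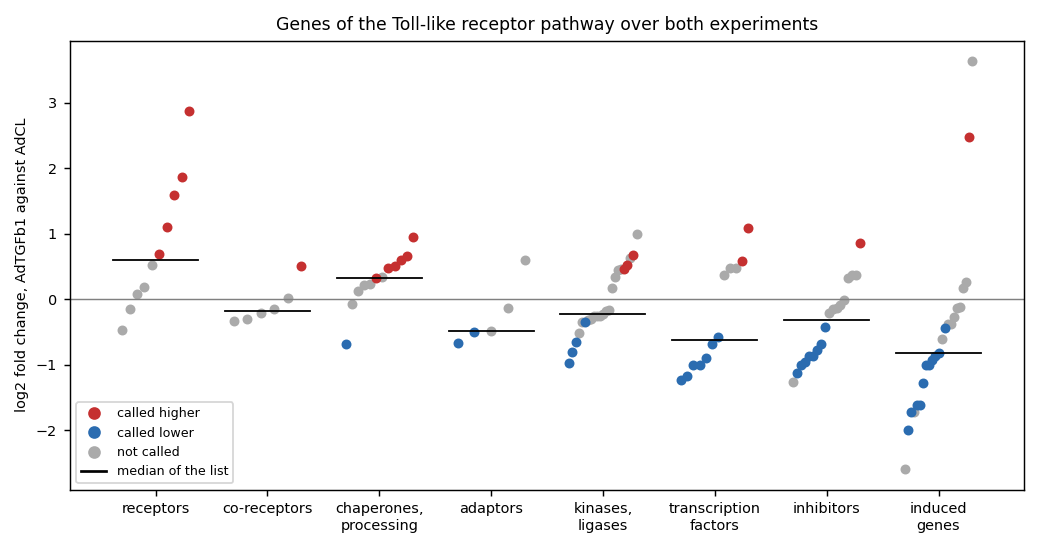
Log2 fold change of AdTGFb1 against AdCL over both experiments for each tested gene of 8 lists of the Toll-like receptor pathway, in order within a list, with the median of each list as a bar; colours mark genes called by edgeR. The receptor and chaperone lists have medians above 0 (0.604 and 0.332) and the list of induced genes has the lowest (-0.815).

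Of 12 transcription factors at the end of the pathway 2 rose and 7 fell, with a median of log2 -0.628, where 6.78% of all genes were called higher and 10.4% lower. The NF-κB subunits Rel (-1.17 ± 0.12, adjusted p = 3.49e-06), Nfkb1 (-0.996 ± 0.12, 1.56e-05), Relb (-1.23 ± 0.15, 1.58e-05) and Nfkb2 (-1.01 ± 0.14, 6.82e-05) fell, and Relb is also on the mature DC list. The 2 that rose, Irf7 (1.09 ± 0.28, 0.0104) and Fos (0.58 ± 0.11, 0.00106), were named after their values were seen. Of 18 inhibitors 1 rose (Socs1, named after its values were seen, 0.86 ± 0.29, 0.0455) and 8 fell, against the same shares of all genes, the latter including Tnfaip3 (A20, -1.004 ± 0.15, 0.000133), Tank (-0.86 ± 0.13, 0.00011), Tnip1 (-0.96 ± 0.16, 0.000484) and Nfkbia (-0.87 ± 0.16, 0.000898), of which A20 and IκBα are themselves induced by NF-κB. Irak3, the inactive kinase IRAK-M, did not pass (0.37 ± 0.23, 0.316). In experiment 3, 3 of the 12 transcription factors rose and 5 fell (median log2 -0.293). Of the 18 inhibitors, 0 rose and 3 fell there (median log2 -0.249), where 1.97% of all genes were called higher and 4.46% lower.

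Of 23 tested genes that Toll-like receptor ligands induce, 1 rose and 11 fell over both experiments. Of all genes, 6.78% were called higher and 10.4% lower. The median of the list was log2 -0.815 against -0.002 for all genes. In experiment 1, 2 rose and 13 fell, where 10.6% of all genes were called higher and 14.1% lower. In experiment 3, 0 rose and 6 fell (median log2 -0.624), where 1.97% were called higher and 4.46% lower. Il6 ranged from 14.9 through a median of 20.4 to 36.6 CPM with AdCL and from 4.32 through 6.79 to 8.31 CPM with AdTGFb1, with no overlap (log2 -1.73 ± 0.27, adjusted p = 0.000232). Of all genes tested, 4.46% likewise had all 6 AdTGFb1 libraries below all controls. Il12b, the p40 chain of interleukin 12, lay at 238.03 to 396.3 and 83.1 to 237.8 CPM (-1.27 ± 0.21, 0.000397). The costimulatory genes Cd80 (-1.61 ± 0.17, 5.22e-06) and Cd86 (-1.01 ± 0.14, 6.36e-05) fell too. The 1 that rose over both experiments was Nos2 (2.48 ± 0.64, 0.0114), the inducible nitric oxide synthase, named after its values were seen. The receptors' median was thus above that of all genes and the induced genes' median below it in the same 12 libraries, while markers of mature DCs fell and those of monocytes and macrophages rose. The part of these cell states in either was not tested.

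By the pattern of log2 CPM over the 12 libraries, centred on its mean, the gene most like each member among 9459 genes whose mean reached 5 CPM differed from member to member. The nearest were Mbnl1 for Tlr2 (root mean square difference 0.12), Pnpla7 for Tlr13 (0.22), Slamf7 for Tlr9 (0.22), Dnaaf3 for Tlr1 (0.27), Atp13a2 for Tlr4 (0.29), Pggt1b for Tlr7 (0.34) and Pcyox1 for Tlr8 (0.39). Those of Tlr6 (Hdac7, 0.48), Tlr3 (Hsd17b7, 0.50) and Tlr12 (Camk2b, 0.86) were farther off. No member had another member as its nearest gene. All 12 points share library, depth and experiment, so this is a description.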

How the data were processed

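RNA of CD11b DCs was sequenced in 12 libraries, 3 per vector and experiment. The labels' protocols state a column kit for RNA, selection of poly(A) RNA and a directional library kit with 10 PCR cycles. Per the submitters' processing notes, which state no role or order, the build was mm9 and the tools were STAR 2.5.0c, HTSeq, DESeq2, FastQC 0.11.4, Trim Galore 0.4.1, bcl2fastq and cutadapt 1.9.1. Annotation and strand setting of the read counting were not given in the sources used here. Raw read counts per gene were deposited, as the values show (whole numbers with differing totals), and all 12 columns were matched to the labels by name.

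Tests used edgeR 4.0.16 (quasi-likelihood F test) in R 4.3.3 with TMM, filterByExpr on the 4 groups, two-sided p-values adjusted by Benjamini-Hochberg over 13221 genes and a threshold of 0.05. The effect over both experiments and that of the experiment came from a model with both terms, and the effects within experiments and their difference from a model of 4 groups. The SE is the effect over the square root of F, so it restates the test. Sex was read from 4 Y-linked genes. Exon lengths and shared sequence came from GENCODE M21 (GRCm38), and promoters from RefSeq. The fits were first tested on simulated counts. Alternatives were RLE size factors, other filters, DESeq2 1.42.0, limma-voom (limma 3.58.1), a term for sex, a fit that leaves out the experiment term, 1 experiment alone and leaving out each library.

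All members are described. Also named were 9 genes fixed whatever their result, up to 4 called genes per list (smallest adjusted p, mean of at least 1 CPM) and the nearest gene by pattern. Members and lists were chosen with earlier results of these data known. Of 1 gene listed by its newer symbol, Acod1, the table holds the older name Irg1.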

Additional observations from a re-analysis of the deposited data

Results flagged for a closer look

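The effect of the vector differed between the experiments for Tlr6 and, among the pathway genes named in the report, for Cd180, Ctss, Tnip1 and Nfkbia, by edgeR's test of the difference (experiment 3 minus experiment 1, log2, Benjamini-Hochberg over all genes). Also called, and named here after their values were seen, were the adaptor Pik3ap1, Peli1 and Map3k8 of the kinases and ubiquitin enzymes, the transcription factor Rela and the induced gene Il10, all with a difference above 0, where 6.02% of all genes were called. For Tlr6 it was 2.69 (adjusted p = 0.0251). For Cd180, the TLR4 relative, it was 1.28 (adjusted p = 0.0173), with means of 115.4 CPM with AdCL and 60.2 CPM with AdTGFb1 in experiment 1 and 64.0 and 80.9 CPM in experiment 3. For Ctss, the protease cathepsin S, it was -0.95 (adjusted p = 0.00543), with a rise in both experiments that was larger in experiment 1. For Tnip1 and Nfkbia, inhibitors of NF-κB, it was 0.97 (adjusted p = 0.00933) and 0.84 (adjusted p = 0.0273). Both fell in experiment 1 (log2 -1.44 and -1.29), and in experiment 3 their effects were log2 -0.47 (adjusted p = 0.0711) and -0.44 (adjusted p = 0.109). In experiment 1 the controls were male and 2 of the 3 AdTGFb1 libraries female, so that sex and vector cannot be told apart there without DC 14. Groups of 3 libraries were not searched for single libraries that stand apart.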

How the results depend on the processing

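Tlr3 and Tlr12 had few counts in the AdCL libraries of experiment 1, and 3 libraries per group limited the tests within an experiment. No paired analysis was run, since the labels state no pairing of libraries between the groups. The number of receptors called higher over both experiments was 2 when the experiment was not a term and 3 with a term for sex (1501 genes called), against 5 and 2271 genes, and it was 4 to 5 (0 lower, 1693 to 2488 genes) when each library was left out. In experiment 1 a term for sex left 1296 genes, 2 receptors higher and 0 lower, against 3264, 4 and 2, the 6 libraries alone left 1 lower, and leaving out libraries gave 2332 to 3342, 3 to 4 and 0 to 2. In experiment 3, against 850 genes and 2 receptors higher, there were 4 higher with no filter, 4 with limma-voom and 5 with its 6 libraries alone, and 498 to 871 genes and 0 to 4 receptors when libraries were left out. For the difference between experiments, against 796 genes, 1 higher and 0 lower, no filter gave 1222, 2 and 1, DESeq2 1286 and 2, limma-voom 2 and a term for sex 157 and 0, and leaving out libraries gave 530 to 956, 0 to 3 and 0 to 1. For experiment 3 against 1, against 850 genes and 5 receptors, DESeq2 gave 1346 genes and a term for sex 547 genes and 3 receptors, and leaving out libraries gave 588 to 829 and 5 to 6. The cause was not tested for any of these.

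None of the effects that changed sign had passed the test. With a term for sex these were Tlr6 (log2 0.23), Tlr9 (0.20) and Cd180 (0.017) over both experiments, Tlr1 (0.15), Tlr2 (-0.094) and Tlr7 (-0.54) in experiment 1, and Tlr8 (-0.11) for experiment 3 against 1. Without 1 library, ranges crossed 0 for Ly96 (-0.090 to 0.26) and Myd88 (-0.21 to 0.053) over both, for Tlr2 (-0.012 to 0.14) and Tlr7 (-0.14 to 0.38) in experiment 1, for the differences of Tlr2 (-0.046 to 0.12), Tlr3 (-1.50 to 0.091) and Tlr13 (-0.24 to 0.46), and for Tlr6 for experiment 3 against 1 (-0.22 to 0.46).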
